A study of Mus musculus with 6 samples.

Results

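The insulin-like growth factor (IGF) family was examined in muscle RNA-seq of mice with and without *Tarsl2*, a gene for a threonyl-tRNA synthetase-like protein. The family was taken as 10 genes chosen by name from the 53084 rows of the count table, namely the ligands *Igf1* and *Igf2*, the receptors *Igf1r* and *Igf2r*, and the binding proteins *Igfbp2*, *Igfbp3*, *Igfbp4*, *Igfbp5*, *Igfbp6* and *Igfbp7*. All 10 had enough counts to be tested. The libraries came from 3 *Tarsl2*+/+ mice (583, 584 and 595) and 3 *Tarsl2*-/- mice (588, 589 and 591), 1 library per mouse. All were males of the C57BL/6 strain (the line was made in C57BL/6J), 6 weeks old, fed standard chow, and which muscle was taken is not given in the sources used here. The *Tarsl2*-/- mice had inherited a CRISPR/Cas9 deletion of a fragment with the third exon, made in the zygotes that gave the founders, so that the gene was disrupted in every tissue and not in muscle alone. The number of founder lines and the feeding state at collection are not given in the sources used here either.

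IGF1 and IGF2 are small secreted proteins that resemble insulin. Both bind the tyrosine kinase receptor IGF1R, which signals through insulin receptor substrates, PI3 kinase and AKT to raise protein synthesis and to keep FoxO factors out of the nucleus. IGF2R, the mannose 6-phosphate receptor, carries IGF2 to lysosomes and so lowers its amount outside the cell. The binding proteins hold the ligands in blood and tissue, lengthen their life and limit or direct their access to receptors. In skeletal muscle, IGF1 is known for growth of fibres and IGF2 for the differentiation of myoblasts. *Igf2* is imprinted and read mainly from the paternal copy, and it lies beside *H19*, a noncoding RNA read from the maternal copy. *Igf2r* is imprinted in the opposite sense in mice, with the antisense RNA *Airn* starting inside it.

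The targeted gene separated the genotypes. Counts on *Tarsl2* were 456, 605 and 464 in *Tarsl2*+/+ muscle but 40, 30 and 37 in *Tarsl2*-/- muscle, which is a log2 fold change of -3.81 (SE 0.16, adjusted p = 6.46e-07). This and every adjusted p below come from the quasi-likelihood test of edgeR, corrected over all genes tested by the Benjamini-Hochberg method, unless another tool is named. Library totals ran from 16845503 to 19512588 counts in *Tarsl2*+/+ and from 16176591 to 20123767 in *Tarsl2*-/- mice, at which 3 counts are 0.146 to 0.187 CPM (counts scaled to the library total and between libraries by the TMM method). Although the sample records name retinas in the extraction step, none of 10 markers of the retina exceeded 7 counts, and the myofibre markers together made up 76771 to 90517 CPM. Of 15075 genes tested, 342 (2.27%) passed an adjusted p of 0.05, 135 (0.896%) of them higher and 207 (1.37%) lower in *Tarsl2*-/- muscle. The median log2 fold change over all genes was 0.0027. Library 589 of the *Tarsl2*-/- mice stood apart in its adipocyte markers, which summed to 3730 CPM against 1199 to 1928 CPM in the other libraries, and its record title carries a letter T that the other *Tarsl2*-/- titles lack and that no source used here explains.

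The gene that differed most in the family was *Igf2*, on the minus strand of chromosome 7 (ENSMUSG00000048583, GRCm38 chr7:142650766-142666816). It has 9 annotated transcripts that begin at several promoters, and the deposited gene count pools them. RefSeq gives 4 start sites for it in this build. The 100 bases before the start at 142657496, where transcripts *Igf2*-201 and *Igf2*-202 begin, are shown because this is the start that the study's own RT-qPCR assay reads, beside the same window of *Igfbp3*, the other member that passed the test. Capitals mark GGGCGG or its reverse complement CCGCCC, the core of a GC box, and TATAAA or TTTATA would be marked likewise. Both are printed 5′ to 3′ on the minus strand, from RefSeq on GRCm38.p6, in which all 10 members had a promoter.
*Igf2* promoter (chr7:142657497-142657596): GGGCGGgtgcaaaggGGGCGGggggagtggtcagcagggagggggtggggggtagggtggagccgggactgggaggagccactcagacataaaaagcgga
*Igfbp3* promoter (chr11:7213924-7214023): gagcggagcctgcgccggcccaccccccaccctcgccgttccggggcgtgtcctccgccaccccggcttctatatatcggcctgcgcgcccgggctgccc
This *Igf2* window holds GGGCGG in 2 places and the *Igfbp3* window in none, and neither holds TATAAA. The *Igf2* windows at the starts 142666816, 142661271 and 142658804 hold GGGCGG or its reverse complement in 0, 0 and 1 places. Among 32851 RefSeq promoter windows of the same length, 24.7% held GGGCGG on either strand and 5.56% held TATAAA. A match of letters is no evidence of a bound factor, and these counts do not say which start was used.

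The RT-qPCR primers for *Igf2* that the study lists are shown because they read a narrower set of *Igf2* RNAs than the gene count does.
Forward primer: gcaaactggacattagcttct
Reverse primer: actgaagcgtgtcaacaagctc
The forward primer matches chr7:142657461-142657481, in the noncoding first exon of *Igf2*-201, and only 1 of the 9 *Igf2* transcripts holds it. Its partner matches chr7:142655684-142655705 on the opposite strand, in the coding second exon, and is held by 8 of the 9 transcripts and by 1 transcript of *Gm49394*, an overlapping gene model on the same strand. Together they span 227 bases of *Igf2*-201. The RNA-seq values below therefore describe *Igf2* as a whole and not the product of this start alone.

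*Igf2* expression was raised in *Tarsl2*-/- muscle. Its counts were 1877, 2006 and 1477 in *Tarsl2*+/+ mice (583, 584, 595, the order kept throughout) and 4469, 4450 and 6083 in *Tarsl2*-/- mice (588, 589, 591). After scaling these were 109.6, 106.4 and 77.5 CPM against 249, 277 and 295 CPM. The lowest *Tarsl2*-/- mouse thus lay well above the highest *Tarsl2*+/+ mouse. The mean rose from 97.8 ± 17.7 CPM to 274 ± 23.4 CPM (SD, n = 3 each), a fold of 2.80 and a log2 fold change of 1.49 (SE 0.13, 95% interval 1.196 to 1.775, adjusted p = 0.000464 by edgeR). *Igf2* ranked 6 of the 15075 genes by p. When each mouse was left out in turn, the log2 fold change lay between 1.34 and 1.57 and passed the threshold in 6 of 6 fits. Of the genes that overlap *Igf2*, the antisense *Igf2os* had 1 to 10 counts, at most 0.677% of the lowest *Igf2* count, and the microRNA gene *Mir483* had none. *Gm49394* (chr7:142650769-142669942), which covers nearly all of *Igf2* on the same strand, had 0 rows in the count table. Its part in the *Igf2* count is therefore unknown.

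*Igf1* is the ligand that growth hormone induces (ENSMUSG00000020053, chr10:87858265-87937042, plus strand). Its expression was 146, 154 and 136 CPM in *Tarsl2*+/+ mice and 169, 168 and 163 CPM in *Tarsl2*-/- mice, on 2504 to 3351 counts. Every *Tarsl2*-/- value was above every *Tarsl2*+/+ value, but the gap between the groups was small. Its log2 fold change of 0.19 (SE 0.08, 95% interval 0.0086 to 0.378) did not pass the test (adjusted p = 0.232 by edgeR), and stayed between 0.15 and 0.24 with any 1 mouse left out.

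Since ratios of genes within a library do not depend on scaling between libraries, the ligands were also compared with each other, per kb of exon. The ratio of *Igf2* to *Igf1* was 1.30, 1.196 and 0.984 in *Tarsl2*+/+ mice and 2.55, 2.86 and 3.14 in *Tarsl2*-/- mice. In *Tarsl2*+/+ muscle the ligands thus stood near parity, with *Igf2* below *Igf1* only in mouse 595. Each *Tarsl2*-/- ratio lay above every *Tarsl2*+/+ ratio. The mean ratio was 1.16 ± 0.160 against 2.85 ± 0.294 (SD, n = 3 each), a log2 difference of 1.30 (p = 0.1 by an exact two-sided permutation test over the mice, which cannot go lower with 3 per group). With the longest transcript as the length, the mean ratios were 1.00 and 2.46. Of 6 ratios tested here and below, 5 reached the smallest possible p. It became 0.12 after Benjamini-Hochberg adjustment over the 6, so none can pass a threshold of 0.05 in a design of this size. The ratios are not independent of each other or of the single-gene results. Those of *Igf2* to *Igf1*, *Igf2r* and *H19* share *Igf2*, and *Igfbp3* to *Igfbp5* pairs a gene that was higher with a gene that was lower.

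**Figure D1:**
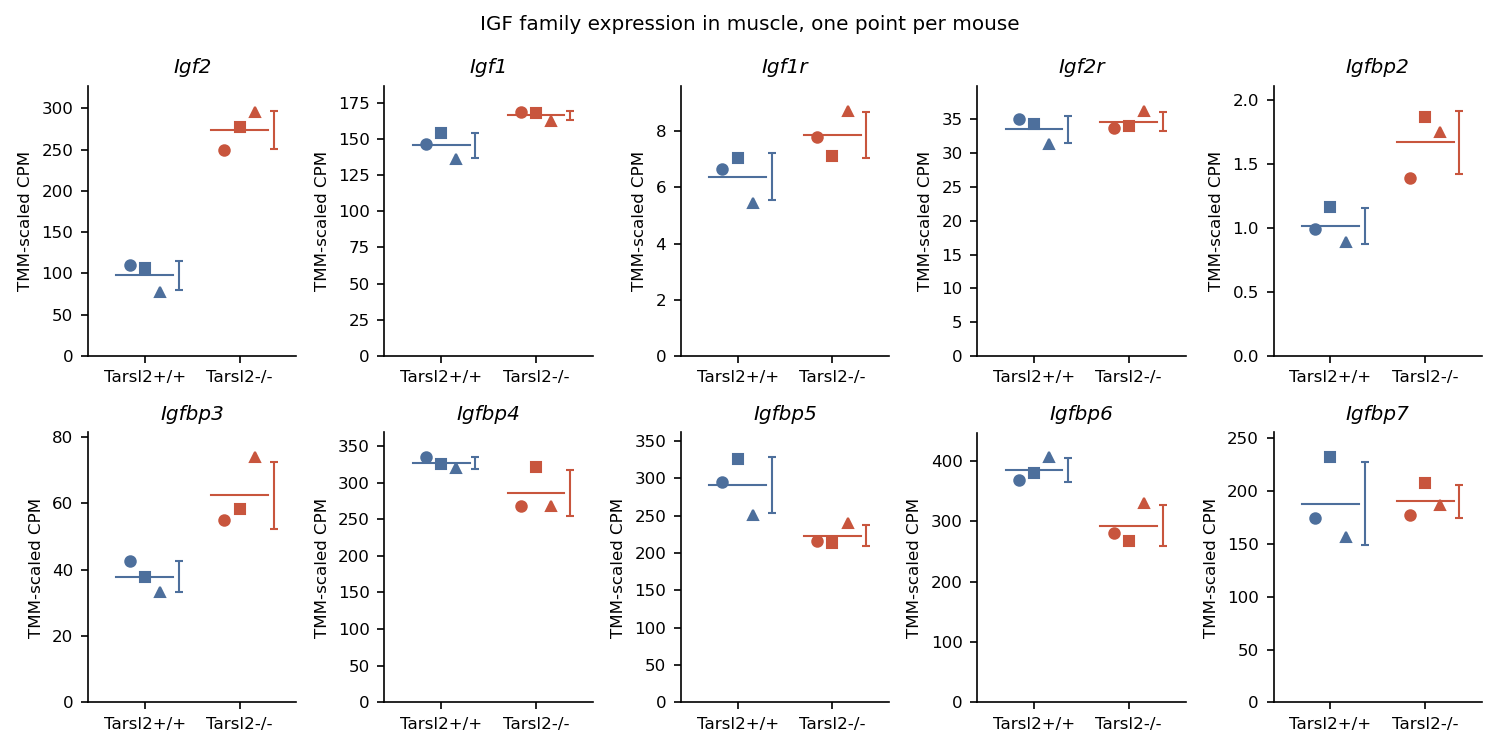
Each panel plots the expression of 1 gene in TMM-scaled CPM (vertical axis, from 0, a scale of its own per panel) for the 3 *Tarsl2*+/+ (blue) and 3 *Tarsl2*-/- (red) mice. Symbols are mice in the order 583, 584, 595 and 588, 589, 591 (circle, square, triangle), the horizontal line is the mean and the bar beside it the SD. *Igf2* and *Igfbp3* show the clearest separation upward, and *Igfbp5* and *Igfbp6* lie lower in every *Tarsl2*-/- mouse.

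Neither receptor gene passed the test. *Igf1r*, the signalling receptor for both ligands (ENSMUSG00000005533, chr7:67952827-68233668, plus strand), had 6.66, 7.06 and 5.45 CPM in *Tarsl2*+/+ mice and 7.80, 7.10 and 8.74 CPM in *Tarsl2*-/- mice. The groups were separated only by the step from 7.06 to 7.10 CPM. Its log2 fold change was 0.31 (SE 0.15, 95% interval -0.026 to 0.639, adjusted p = 0.293 by edgeR). *Igf2r*, which clears IGF2 (ENSMUSG00000023830, chr17:12682406-12769664, minus strand), had 35.0, 34.3 and 31.3 CPM against 33.7, 34.0 and 36.3 CPM, and the groups overlapped. For *Igf2r* the interval of the log2 fold change was -0.144 to 0.240 around 0.05 (SE 0.09, adjusted p = 0.812). *Airn*, antisense to *Igf2r*, had 115 to 174 counts, at most 31.9% of the lowest *Igf2r* count of 545, and neither the strand setting of the counting nor, because the paper and the records name different kits, a stranded library is certain. The ratio of *Igf2* to *Igf2r* per kb was 4.72 ± 0.602 in *Tarsl2*+/+ and 12.8 ± 0.727 in *Tarsl2*-/- mice (SD, n = 3 each). It ran from 4.02 to 5.09 in the former and from 12.0 to 13.3 in the latter. The ratio of *Igf1r* to *Igf2r* was 0.105, 0.114 and 0.0966 in *Tarsl2*+/+ and 0.128, 0.116 and 0.133 in *Tarsl2*-/- mice, with no overlap but a step of only 0.114 to 0.116 between the groups (p = 0.1 by the exact permutation test).

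The insulin receptor gene *Insr*, whose product can pair with IGF1R in hybrid receptors, had 15.2, 19.04 and 14.7 CPM in *Tarsl2*+/+ mice and 17.3, 22.5 and 18.5 CPM in *Tarsl2*-/- mice. These ranges overlapped (log2 fold change 0.25, SE 0.13, adjusted p = 0.336 by edgeR), and the log2 fold change was 0.13 without mouse 589 and 0.37 without mouse 584. *Igf1r* stood at 0.322 ± 0.0311 of *Insr* per kb in *Tarsl2*+/+ and at 0.338 ± 0.0696 in *Tarsl2*-/- muscle, which overlapped as well (exact two-sided permutation test, n = 3 each, p = 0.8).

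*Igfbp3* was the one binding protein gene to pass the test. Its product is the main carrier of IGFs in blood, where it forms a complex with the acid-labile subunit (ENSMUSG00000020427, chr11:7206086-7213923, minus strand). Its counts were 729, 713 and 634 against 987, 936 and 1522 in *Tarsl2*-/- mice, or 42.6, 37.8 and 33.2 CPM against 55.0, 58.3 and 73.9 CPM. The highest value was that of mouse 591, and the groups did not overlap. Expression rose from 37.9 ± 4.66 to 62.4 ± 10.1 CPM (SD, n = 3 each), a fold of 1.65 and a log2 fold change of 0.72 (SE 0.13, 95% interval 0.444 to 1.00, adjusted p = 0.0175 by edgeR). The call was lost without *Tarsl2*+/+ mouse 595 (0.63, adjusted p = 0.0674) and without *Tarsl2*-/- mouse 591 (0.58, adjusted p = 0.0577), with the direction kept in each of the 6 fits.

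*Igfbp5* and *Igfbp6* were lower in every *Tarsl2*-/- mouse than in any *Tarsl2*+/+ mouse without passing the edgeR test. *Igfbp5*, whose product also binds extracellular matrix, is a neighbour of *Igfbp2* (ENSMUSG00000026185, chr1:72857932-72874884, minus strand). Its values were 296, 326 and 251 CPM in *Tarsl2*+/+ and 217, 214 and 240 CPM in *Tarsl2*-/- mice, which are closest at 251 and 240 CPM. The log2 fold change was -0.38 (SE 0.11, 95% interval -0.619 to -0.144, adjusted p = 0.0863 by edgeR). *Igfbp6*, whose product prefers IGF2 to IGF1 (ENSMUSG00000023046, chr15:102144362-102149511, plus strand), had 368, 379 and 406 CPM against 281, 267 and 330 CPM. Its means were 384 ± 19.6 and 293 ± 33.2 CPM (SD, n = 3 each), a log2 fold change of -0.39 (SE 0.10, 95% interval -0.616 to -0.170, adjusted p = 0.0679 by edgeR). With DESeq2, the tool that the study's methods name, both were called lower (adjusted p = 0.0211 for *Igfbp5* and 0.00873 for *Igfbp6*), and DESeq2 called 4 of the 10 members against 4.96% of the 14490 genes to which it gave an adjusted p.

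The other binding protein genes did not pass the test with edgeR or with DESeq2. *Igfbp2*, which lies tail to tail with *Igfbp5* (ENSMUSG00000039323, chr1:72824503-72852474, plus strand), was counted only 17, 22 and 17 times in *Tarsl2*+/+ and 25, 30 and 36 times in *Tarsl2*-/- mice. These correspond to 1.02 ± 0.139 and 1.67 ± 0.248 CPM (SD, n = 3 each). Although its log2 fold change of 0.71 was close to that of *Igfbp3*, its SE of 0.28 was more than that of any other member (adjusted p = 0.188 by edgeR). *Igfbp4*, an inhibitor of IGF action that the protease PAPP-A cleaves (ENSMUSG00000017493, chr11:99041244-99054392, plus strand), had 335, 325 and 320 CPM against 268, 321 and 268 CPM. It was lower in mice 588 and 591, while mouse 589 lay within the *Tarsl2*+/+ range (log2 fold change -0.19, SE 0.10, adjusted p = 0.301 by edgeR). *Igfbp7*, whose product binds IGFs weakly and is abundant in vessel walls (ENSMUSG00000036256, chr5:77349240-77408041, minus strand), had 175, 232 and 157 CPM against 177, 208 and 187 CPM. The log2 fold change of *Igfbp7* was 0.02 (SE 0.14, 95% interval -0.278 to 0.315, adjusted p = 0.964), and its direction turned with several settings, upper quartile scaling among them. *Igfbp7* shares 85 bases at its end with *Polr2b* on the opposite strand.

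**Figure D2:**
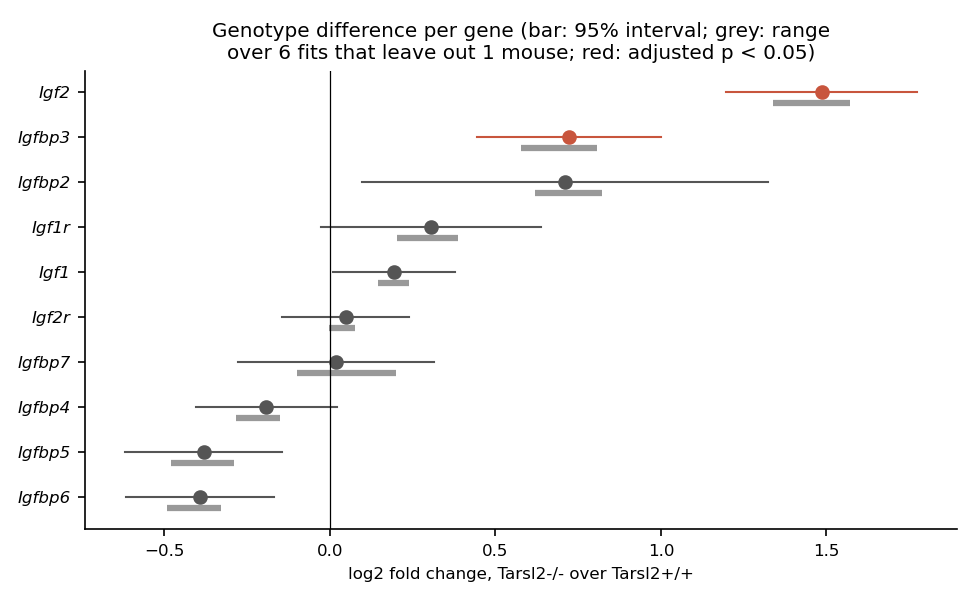
The log2 fold change of each member (horizontal axis, *Tarsl2*-/- over *Tarsl2*+/+) is shown with its 95% interval from edgeR and, in grey below it, the range over the 6 fits that leave out 1 mouse. The members with an adjusted p under 0.05, *Igf2* at 1.49 and *Igfbp3* at 0.72, are in red, and the interval of *Igfbp2* is the widest.

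Over the family, 2 of 10 members were higher at an adjusted p under 0.05 and 0 were lower by edgeR, beside 0.896% and 1.37% of all genes tested. At an unadjusted p under 0.05 these counts were 4 (with *Igf1* and *Igfbp2*) and 2 (*Igfbp5* and *Igfbp6*), beside 9.58% and 10.2% of all genes, or 19.8% in either direction. With limma-voom, which called 2.11% of all genes, they were 2 and 0, and with DESeq2, which called 4.96% of its genes, 2 and 2. In 5 members each *Tarsl2*-/- mouse was above each *Tarsl2*+/+ mouse, as held for 12.6% of all genes, and in 2 members below, as held for 11.9%. The remaining 3 members overlapped. The median log2 fold change was 0.12 over the members and 0.0027 over all genes. Without *Tarsl2*-/- mouse 589 the calls were *Igf2* and *Igfbp3* again, and the median over the members was 0.13.

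Levels of different genes were compared per kb of exon. In *Tarsl2*+/+ muscle *Igfbp6* had the highest level, 346 ± 17.6 CPM per kb, followed by *Igfbp7* at 156 ± 32.6, *Igfbp4* at 73.9 ± 1.73 and *Igfbp5* at 48.5 ± 6.27 CPM per kb (SD, n = 3 each). The ligands came next, *Igf2* at 17.1 ± 3.10 and *Igf1* at 14.7 ± 0.899 CPM per kb, and their ranges overlapped. Below them stood *Igfbp3* at 12.1 ± 1.49, *Igf2r* at 3.61 ± 0.213, *Igfbp2* at 0.551 ± 0.0755 and *Igf1r* at 0.380 ± 0.0497 CPM per kb. All other neighbours in this order had ranges that stood apart, those of *Igf1* and *Igfbp3* by only 13.8 against 13.6 CPM per kb.

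In *Tarsl2*-/- muscle the order changed in the middle. *Igf2* reached 47.8 ± 4.09 CPM per kb and passed *Igfbp5*, which stood at 37.2 ± 2.42, and *Igfbp3* at 19.9 ± 3.23 passed *Igf1* at 16.8 ± 0.327 CPM per kb (SD, n = 3 each). The ranges of *Igf2* and *Igfbp5* did not overlap, whereas those of *Igfbp3* and *Igf1* overlapped when the longest transcript was used as the length. *Igfbp6*, *Igfbp7* and *Igfbp4* remained the first 3, at 263 ± 29.9, 158 ± 12.9 and 64.7 ± 6.97 CPM per kb. The levels of *Igf2r*, *Igfbp2* and *Igf1r* were 3.72 ± 0.153, 0.904 ± 0.134 and 0.469 ± 0.0489 CPM per kb.

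**Figure D3:**
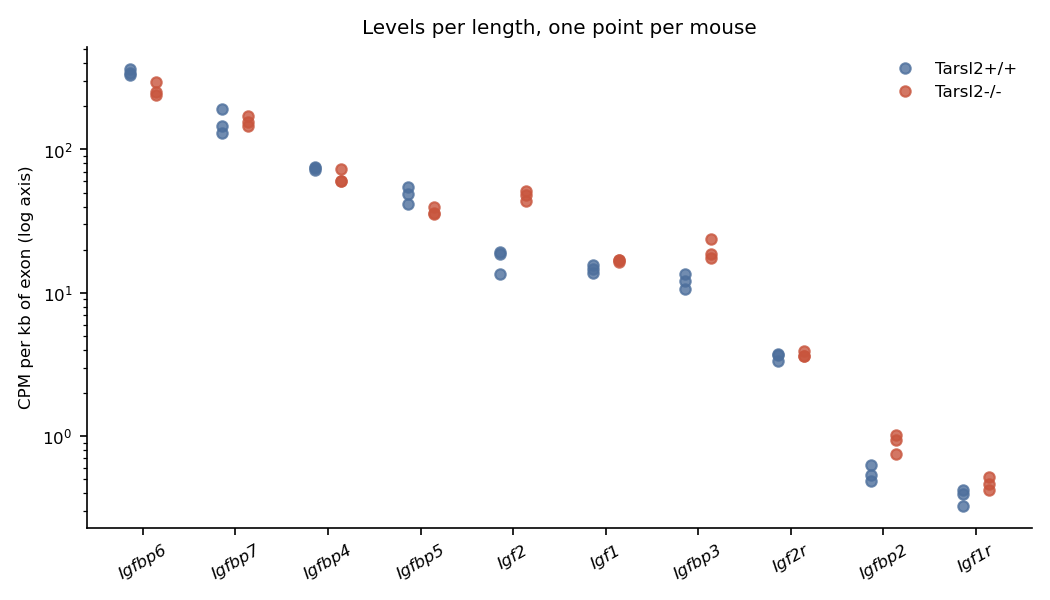
The level of each member in CPM per kb of exon (vertical axis, logarithmic) is plotted for each *Tarsl2*+/+ (blue) and *Tarsl2*-/- (red) mouse, in the order of the *Tarsl2*+/+ means. *Igf2* lies beside *Igf1* in *Tarsl2*+/+ mice, near 17.1 and 14.7, and above *Igfbp5* in *Tarsl2*-/- mice, at 47.8 against 37.2.

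The 6 binding protein genes together made up 615, 674 and 620 CPM per kb in *Tarsl2*+/+ mice and 514, 540 and 577 CPM per kb in *Tarsl2*-/- mice. The summed level was thus lower in each *Tarsl2*-/- mouse (636 ± 32.6 against 543 ± 31.5, SD, n = 3 each). Most of this difference lay in *Igfbp6*, at 346 against 263 CPM per kb, which did not pass the edgeR test. *Igfbp6* held 54.4% ± 4.18 of the sum in *Tarsl2*+/+ and 48.4% ± 3.56 in *Tarsl2*-/- muscle, and *Igfbp7* held 24.3% ± 3.86 and 29.0% ± 2.55. Both shares overlapped between the genotypes, at 50.6% to 58.9% against 44.5% to 51.5% for *Igfbp6*. For *Igfbp7* they were 20.9% to 28.5% against 26.8% to 31.8%, while its level was 156 against 158 CPM per kb. The share of *Igfbp3* went from 1.91% ± 0.268 to 3.65% ± 0.381. The ratio of *Igfbp3* to *Igfbp5* was 0.276, 0.222 and 0.254 in *Tarsl2*+/+ mice and 0.487, 0.524 and 0.590 in *Tarsl2*-/- mice, with no overlap (exact two-sided permutation test, n = 3 each, p = 0.1, the smallest possible). This separation was fixed in advance and adds no result, because *Igfbp3* was above and *Igfbp5* below in every *Tarsl2*-/- mouse.

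The neighbour of *Igf2*, *H19* (chr7:142575529-142578143), was compared next because the pair shares an imprinting control region and enhancers. *H19* had 3170, 3090 and 2191 CPM in *Tarsl2*+/+ mice and 3216, 2741 and 3616 CPM in *Tarsl2*-/- mice, and the groups overlapped. Its log2 fold change was 0.18 (SE 0.15, 95% interval -0.157 to 0.516, adjusted p = 0.560 by edgeR), so that the interval lay below that of *Igf2* throughout. It was 0.03 without mouse 595, 0.08 without mouse 591 and 0.28 without mouse 589. The ratio of *Igf2* to *H19* per kb was 0.0149, 0.0148 and 0.0152 in *Tarsl2*+/+ mice, although each gene alone varied between them with a CV of 18.1% and 19.3%. In *Tarsl2*-/- mice the ratio was 0.0333, 0.0435 and 0.0351, and all were above the *Tarsl2*+/+ values (exact two-sided permutation test, n = 3 each, p = 0.1). Of the genes for proteins that bind *Igf2* mRNA, *Igf2bp2*, named after its values were seen, was the one tested, and its log2 fold change of 0.49 did not pass (adjusted p = 0.243 by edgeR). It had 4.79, 4.46 and 4.14 CPM against 4.73, 8.66 and 5.53 CPM, the highest in mouse 589, and its log2 fold change ranged from 0.21 to 0.66 with a mouse left out.

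**Figure D4:**
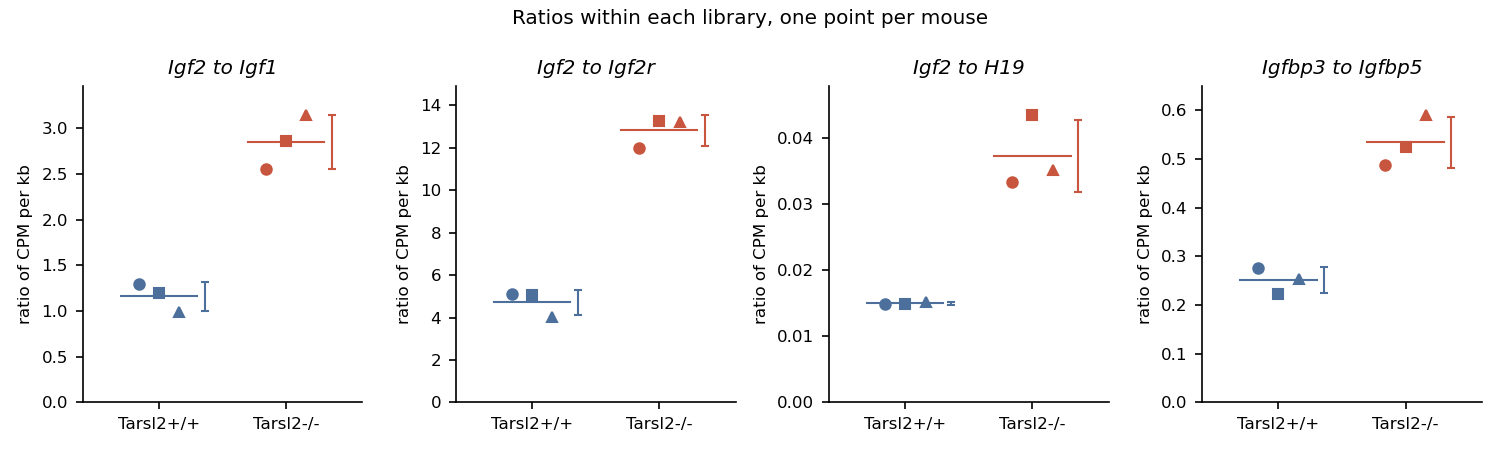
Ratios of CPM per kb within each library are plotted for *Igf2* to *Igf1*, *Igf2* to *Igf2r*, *Igf2* to *H19* and *Igfbp3* to *Igfbp5* (vertical axes from 0) for each *Tarsl2*+/+ (blue) and *Tarsl2*-/- (red) mouse, with the mean as a line and the SD as a bar. In each panel the genotypes do not overlap, and the *Tarsl2*+/+ ratios of *Igf2* to *H19* lie within 0.0148 and 0.0152. For *Igfbp3* to *Igfbp5* the separation follows from the opposite shifts of the genes.

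Genes around the family were taken from 4 lists. Of 11 genes for other carriers, inhibitors and proteases of the IGF system, 9 were tested and 0 passed in either direction by edgeR, DESeq2 or limma-voom, while 3 had an unadjusted p under 0.05, as 19.8% of all genes did (median log2 fold change 0.02). *Igfals*, the acid-labile subunit that joins IGFBP3 in blood, had 4.99 ± 1.35 and 5.44 ± 2.045 CPM (SD, n = 3 each) and its direction turned without mouse 589 or 595. *Igfbp1*, a mainly hepatic binding protein, had 2, 3 and 1 counts in *Tarsl2*+/+ and 0, 0 and 1 counts in *Tarsl2*-/- mice, too few to test. *Pappa*, the gene of the PAPP-A protease, was chosen for mention after its values were seen. It had 8, 4 and 9 counts against 17, 17 and 27 counts and a log2 fold change of 1.52 (SE 0.39) that did not pass (adjusted p = 0.0678 by edgeR). Of 7 genes that lead from growth hormone to *Igf1*, 7 were tested and 0 passed by any of these tools, while 1 had an unadjusted p under 0.05 beside 19.8% of all genes (median 0.02).

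Of 24 genes of signalling below the IGF and insulin receptors, 2 passed, both higher, and 0 were lower by edgeR, beside 0.896% and 1.37% of all genes. At an unadjusted p under 0.05 the counts were 8 higher and 0 lower, beside 9.58% and 10.2% of all genes. With DESeq2 they were 3 and 0, beside 4.96% of its genes called in either direction. The log2 fold change was positive in 20 of the 24, with a median of 0.16, and 50.5% of all genes tested were positive. *Irs2*, an insulin receptor substrate, had 6.66, 5.52 and 4.04 CPM in *Tarsl2*+/+ mice and 12.3, 11.2 and 9.03 CPM in *Tarsl2*-/- mice. It rose by a log2 fold change of 1.00 (SE 0.19, adjusted p = 0.0214 by edgeR). *Foxo4*, a FoxO transcription factor that AKT inhibits, had 47.0, 51.9 and 43.9 CPM against 65.9, 66.8 and 67.7 CPM and rose by 0.49 (SE 0.09, adjusted p = 0.0175). The genotypes did not overlap for either gene, but *Irs2* passed in 3 of the 6 fits that left out 1 mouse (lost without 595, 588 or 589) and *Foxo4* in 2 of them (lost without 583, 595, 589 or 591). Over the 4 lists, 0 genes passed without *Tarsl2*+/+ mouse 595, when *Irs2* stood at 0.83 and *Foxo4* at 0.43, and 0 without *Tarsl2*-/- mouse 589, when they stood at 0.98 and 0.49. Calls over all genes fell as well, to 96 and 126.

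Markers of the other cell types in muscle were set beside these results, because in bulk tissue fewer cells of a type and less RNA per cell cannot be told apart. The 8 fibroblast markers, of a cell type that makes several IGF binding proteins, summed to 10028 to 11496 CPM in *Tarsl2*+/+ and 8313 to 9836 CPM in *Tarsl2*-/- mice. All 8 had negative log2 fold changes, with a median of -0.21, and 0 passed by edgeR or limma-voom. An unadjusted p under 0.05 was found for 2 of the 8, beside 19.8% of all genes. DESeq2 called 2, beside 4.96% of its genes. In 2 of the 8 each *Tarsl2*-/- mouse was below each *Tarsl2*+/+ mouse, as held for 11.9% of all genes, and 6 overlapped. The 6 tenocyte markers summed to 203 to 267 against 163 to 202 CPM, closest at 202.8 and 201.7 CPM. Of the 6, 5 had negative log2 fold changes, and the median was -0.31. In 1 of them each *Tarsl2*-/- mouse was below each *Tarsl2*+/+ mouse, as held for 11.9% of all genes, and 5 overlapped. By edgeR and limma-voom 0 passed, while DESeq2 called 1 lower, beside 4.96% of its genes called in either direction. At an unadjusted p under 0.05, 2 were lower, beside 10.2% of all genes. The 8 endothelial markers summed to 143 to 169 against 120 to 147 CPM, which overlap. Of the 8, 7 had negative log2 fold changes, and the median was -0.20. By edgeR 1 passed as lower, beside 1.37% of all genes. DESeq2 and limma-voom also called 1, beside 4.96% and 2.11% of their genes in either direction. At an unadjusted p under 0.05 the counts were 1 higher and 2 lower, beside 9.58% and 10.2% of all genes. *Cdh5* had the lowest log2 fold change (-0.64). *Flt1*, the 1 positive marker, was above every *Tarsl2*+/+ mouse in each *Tarsl2*-/- mouse without passing (0.55, adjusted p = 0.0784 by edgeR). The sums weigh each marker by its expression, and the highest count of a fibroblast marker was 128625. The fibroblast sums, and the tenocyte and endothelial medians, thus moved in the same direction as *Igfbp5* and *Igfbp6*. The part of these cell types in those values was not tested.

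All 7 macrophage markers were lower in every *Tarsl2*-/- mouse than in any *Tarsl2*+/+ mouse, as held for 11.9% of all genes. Their sums were 591 to 661 CPM in *Tarsl2*+/+ and 381 to 480 CPM in *Tarsl2*-/- mice. By edgeR 4 of them, *Adgre1*, *Csf1r*, *C1qa* and *C1qb*, passed as lower, beside 1.37% of all genes. DESeq2 called 7 lower, beside 4.96% of genes called in either direction. The part of this shift in the family's values was not tested. The 8 markers of immature or regenerating fibres (7 of them tested), in which *Igf2* is known to be active, summed to 97.7 to 107.7 CPM in *Tarsl2*+/+ and 80.6 to 111.2 CPM in *Tarsl2*-/- mice, and the 6 satellite cell markers to 49.4 to 63.3 and 39.9 to 56.3 CPM. In both lists the sums overlapped and 0 genes passed in either direction by edgeR, DESeq2 or limma-voom. At an unadjusted p under 0.05 the count was also 0 in both, beside 19.8% of all genes. The 7 adipocyte markers overlapped as well, and their median log2 fold change of 0.51 became -0.19 without mouse 589. For the smooth muscle and pericyte list the median was 0.0085, and for the Schwann cell list -0.03 (0.35 without mouse 588, -0.24 without mouse 589). The myofibre list had a median of 0.14, with *Ckm* and *Myh1* higher by the edgeR test, beside 0.896% of all genes. Of its 8 markers 3 were negative, of which *Pvalb* (-0.23, adjusted p = 0.348 by edgeR) was below in each *Tarsl2*-/- mouse. The 6 red cell markers had a median of -0.86, or -0.47 without mouse 595. Of them 0 passed by edgeR and 1 by DESeq2, which called 4.96% of its genes. At an unadjusted p under 0.05, 5 were lower, beside 10.2% of all genes.

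**Figure D5:**
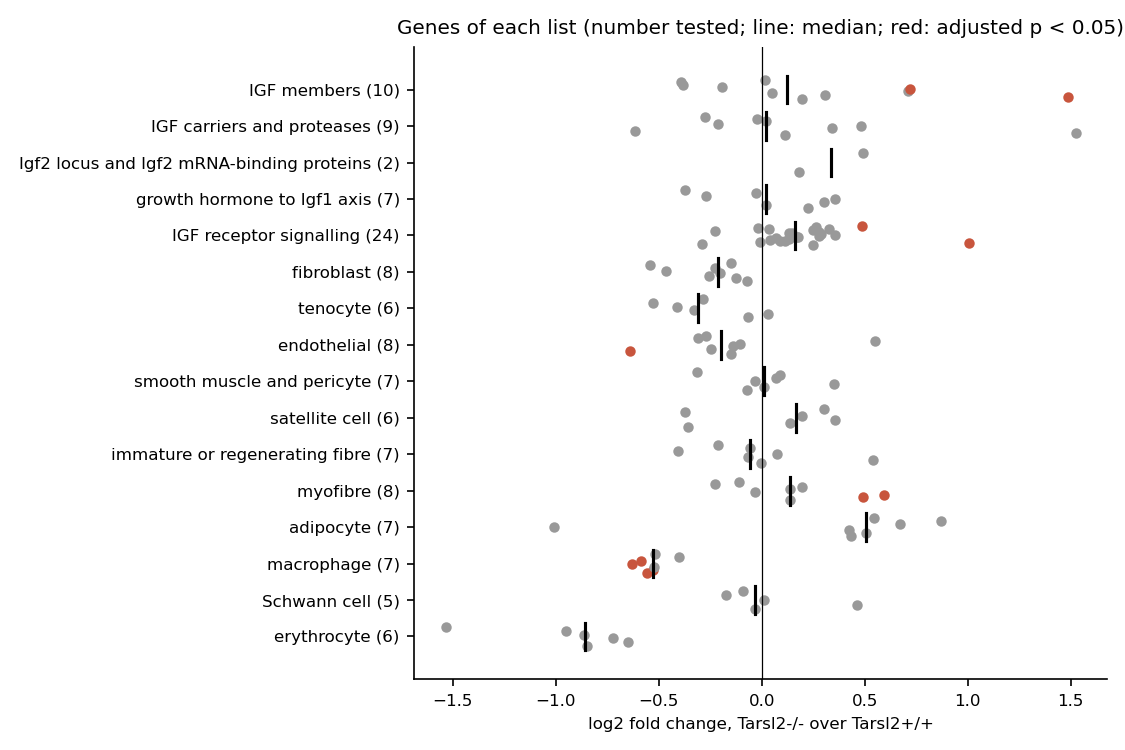
The log2 fold change of each tested gene (horizontal axis, *Tarsl2*-/- over *Tarsl2*+/+) is shown by list, with the number tested in brackets, the median as a black line and genes with an adjusted p under 0.05 in red. The IGF members extend from -0.39 to 1.49, and the macrophage list lies to the left, at a median of -0.53.

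The genes whose values over the 6 libraries most resembled those of *Igf2* were ranked by the root mean square difference of log2 CPM, each gene centred on its own mean, among 12448 genes. The nearest was *Kcne1l*, listed as a potassium channel pseudogene, at 0.145, followed by *Pm20d2*, a peptidase gene, at 0.206, *Fer1l6* at 0.217, *Sh3rf2* at 0.219 and *Pdk4*, a kinase that inhibits pyruvate dehydrogenase, at 0.258. The median over all candidates was 0.777, and *Igf2* itself spanned 1.93 on the same log2 scale. Each of the 5 was higher in *Tarsl2*-/- muscle and passed the edgeR test, with log2 fold changes from 1.10 to 1.63, so the ranking describes a shared genotype difference over 6 libraries.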

How the data were processed

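Muscle RNA of 3 Tarsl2+/+ and 3 Tarsl2-/- mice was sequenced by the authors, per the paper's methods as stranded poly(A) libraries mapped by HISAT2 to mm10. The records name another kit and input amount. The deposited table holds raw read counts for 53084 genes, 448 of them without a gene name. The counting tool, annotation and strand setting are not given in the sources used here. The submitters' processing notes name Bowtie 0.12.2 and mm8, but the coordinates of the 10 members in the table were those of GENCODE vM21 on GRCm38 (mm10).

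Samples were grouped by the record titles, and 0 sample columns were left unused. Genes were filtered with filterByExpr (minimum count 10, minimum total 15) and tested with edgeR 4.0.16 (TMM, glmQLFit, glmQLFTest, genotype only) in R 4.3.3, with Benjamini-Hochberg adjustment over 15075 genes and a threshold of 0.05. Each SE is the size of the change over the root of its F statistic. The common biological coefficient of variation was 12.1%. Levels are CPM divided by the union of exons in kb, taken from GENCODE vM21. The length in the deposited table differed from it for *Igf2r* (9438 against 9308 bases) and *H19* (2372 against 2460 bases). *Igfals* differed in both length and coordinates. Alternatives were DESeq2 1.42.0, limma-voom (limma 3.58.1), RLE and upper quartile scaling, other count filters, another gene length and each library left out. Same-genotype libraries differed by more than sampling noise (chi-square per gene 13.0 to 28.3). The fit was tested on simulated data.

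The members and lists were chosen with earlier results of these data known. Named genes were the members, genes of 4 pathway lists past the threshold, *Insr*, *H19*, *Igfbp1*, *Igfals*, *Tarsl2* and the 5 genes most like *Igf2* (mean of at least 1 log2 CPM). *Pappa*, *Igf2bp2*, overlapping genes and single cell type markers were named outside this rule, after their values were seen.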

Additional observations from a re-analysis of the deposited data

How the results depend on the processing

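*Igf2* passed the threshold, in the same direction, in all 12 alternatives. Of 120 member values under alternatives, 109 kept direction and side of the threshold, 2 lost and 4 gained a call, and 5 turned direction. The 342 genes called became 719 with DESeq2, 1437 without the filter and 81 to 625 with a mouse left out. Members called went from 2 to 4 with DESeq2 and without the filter (*Igfbp5* and *Igfbp6* added, beside 5.62% of genes called without the filter), and were 1 to 2 with a mouse left out. Pathway list genes called went from 2 to 6 without the filter and ranged from 0 to 2 with a mouse left out. Directions turned for *Igf2r*, *Igfbp7* and *Igfals*, whose log2 fold changes in the main fit were 0.05, 0.02 and 0.11. With a mouse left out, *Igf2r* ranged from -0.0017 (without *Tarsl2*+/+ mouse 595) to 0.075. *Igfbp7* was -0.0037 with upper quartile scaling, and ranged from -0.0998 to 0.200 with a mouse left out (below 0 without 583, 595 or 589). *Igfals* ranged from -0.208 (without 589, and -0.0870 without 595) to 0.339. The cause of these changes was not tested. The log2 difference of the *Igf2* to *Igf1* ratio stayed between 1.19 and 1.39. No paired analysis was possible because the genotypes share no mouse number. Among the members, *Igfbp2* had the fewest counts (at most 36) and the largest SE (0.28).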
